A study of Mus musculus with 2 samples.

Results

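The genes described here encode surface proteins by which a tumour cell is read by natural killer (NK) cells, T cells and phagocytes. They are H60a, Ulbp1, Pvr, Cd274, Cd80, Cd276, Icosl and Cd47. The 8 genes were chosen by name as ligands of NK or T cell receptors or of the phagocyte receptor SIRP alpha, with the knockdown-minus-control differences of these same arrays known, so the values below are a description and carry no test. All 8 were found on the array, where 12 of its 45281 features (bead-bound probes) carried their symbols or gene numbers, of 30712 genes named in all. The arrays were hybridised with RNA of CT26, a mouse colon carcinoma line of BALB/c origin. The cells of one sample had been transduced with a pLKO.1 lentiviral vector that expresses a short hairpin RNA against CDK8, a kinase of the Mediator complex (knockdown), and those of the other with pLKO.1 carrying no hairpin (control). Each group had 1 array. The labels name no animal, treatment, time or clone, and with 1 hairpin and 1 array a group, differences between hairpin, culture and array cannot be told apart.

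NK cells weigh activating against inhibitory signals at the surface of the cell they meet. H60a and Ulbp1 (the MULT1 protein) are recognised by the activating receptor NKG2D, and Pvr (CD155) by activating DNAM-1 and by inhibitory TIGIT and CD96. The B7 family proteins of Cd274 (PD-L1), Cd80, Cd276 (B7-H3) and Icosl tune T cells through PD-1, CD28, CTLA-4, ICOS and receptors still debated, while CD47 binds SIRP alpha on phagocytes and restrains engulfment.

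Of the 8 ligand genes, 7 were detected on both arrays, and 2 of them, H60a and Cd276, were at least 1.5-fold higher on the knockdown array. None was 1.5-fold lower. Over the 13263 genes detected on both arrays, 4.34% were at least 1.5-fold apart, with 2.09% higher and 2.25% lower on the knockdown array. Of these, 277 were higher and 298 lower, a split that became 355 higher and 234 lower when the arrays were scaled to a common median. Nothing is read from the members' count against this share, because the same differences were known when the genes were chosen. A feature counted as detected when its raw intensity passed the upper 1% of the array's background, which was 93.9 on the knockdown array and 94.6 on the control array. All differences are knockdown minus control on a log2 scale after background correction and quantile normalization. They have no replicate check. As a partial yardstick, the SD of these differences between features of 1 gene was 0.19 over 3915 genes with 2 or more features detected on both arrays. It leaves out differences between the arrays that the features of a gene share, and it pools dim and bright features. The members' median difference was 0.21 over 7 genes, beside -0.01 over all genes. By size, 4 of the 7 lay above 0 by more than the SD between features and 0 below it, against 18.8% of all genes above and 19.9% below. The median is the value of Cd47, which passed this SD narrowly and was 0.09 with features under its older names added. Nothing is read from this median or count either, for the same reason. In bulk RNA, more or fewer cells that express a gene and more or less of its RNA per cell cannot be told apart.

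**Figure D1:**
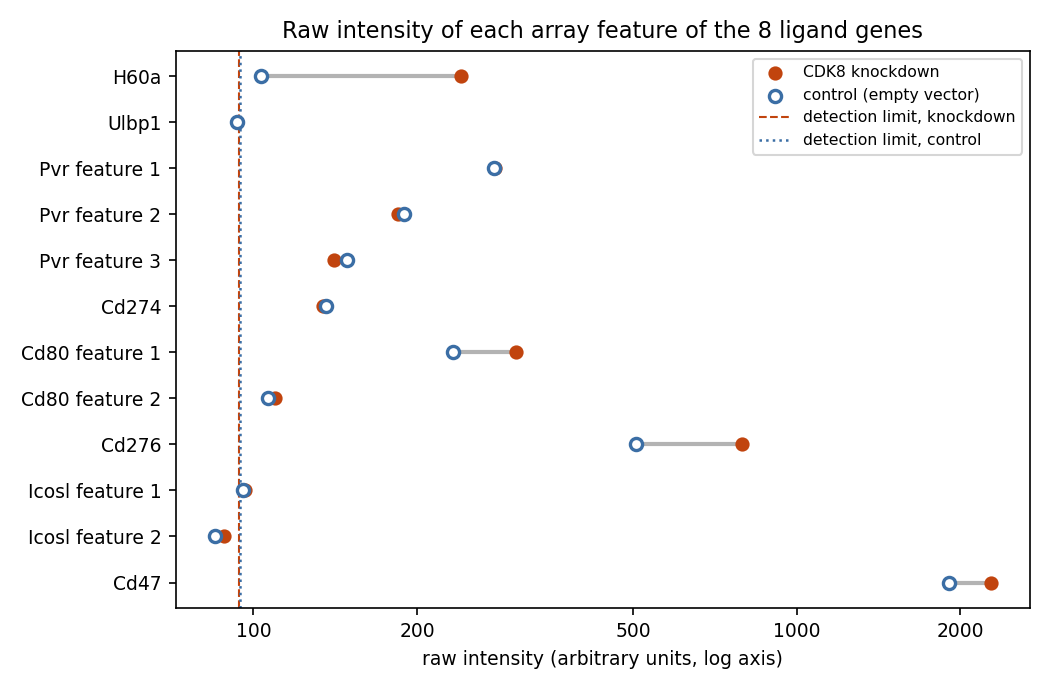
Raw intensity (log axis, arbitrary units) of each of the 12 array features of the ligand genes, with filled points for the knockdown array, open points for the control array and vertical lines for each array's detection limit. H60a, Cd276, the brighter Cd80 feature and Cd47 lie to the right on the knockdown array, while Ulbp1 and 1 Icosl feature lie at or below the limits.

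H60a, which encodes an NKG2D ligand and minor histocompatibility antigen, was the member with the largest difference. Its only feature read 241.2 on the knockdown array, against 103.3 on the control array. These raw values lay 60.3 background SDs above the background peak in the knockdown and 5.63 in the control, so the gene was well above background on the first array and just above it on the second. On the log2 scale the levels were 7.35 in the knockdown and 4.94 in the control, a difference of 2.41 or 5.31-fold. It was the sixth highest of the 13263 genes detected on both arrays. A further 1563 genes were detected in the knockdown only and were not ranked. Of the 2234 genes whose mean level lay within 0.5 of that of H60a, 2.82% were at least 1.5-fold higher. The control value lay close to background, and the size depended on the processing. Under the 9 processing alternatives it ran between 1.19 and 3.21, always higher in the knockdown. The genes nearest to H60a by Euclidean distance over its pair of log2 values were Hopx (distance 0.21) and Itlnb (distance 0.31). Hopx, a homeodomain-only protein gene, differed by 2.62 and Itlnb, an intelectin gene, by 2.52. With only 2 arrays this likeness says no more than that these genes were dim on the control array and brighter on the knockdown array.

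No other NKG2D ligand gene was measured as higher on the knockdown array. Ulbp1 read 93.2 on the knockdown array and 93.3 on the control array, not above the detection limit on either, so no fold is given. The Raet1 genes encode the RAE-1 family and are close copies of each other, so their features may read one another's transcripts and their values are uncertain. Raet1c was detected through 3 features, which read 105.9, 97 and 85.2 on the knockdown array against 107.7, 105.5 and 109.8 on the control array. The first pair of features passed the limit on each array, with differences of -0.07 and -0.41 that averaged -0.24. The last was not above background in the knockdown and has only a bound of -0.79. With its measured value averaged in, the gene's difference was -0.54, and over the alternatives it ran between -0.54 and -0.05. Raet1b was detected in the control only and by 1 of 3 features, at 83.8 in the knockdown against 121.1 in the control. Its bound was -1.17 on the log2 scale as processed here, but depended on the processing: it was -0.58 with an offset of 50, -0.37 without background correction and -0.22 with its other features, at background on both arrays, averaged in. Raet1a, Raet1d and Raet1e were not above background on either array, and no feature carried the names H60b or H60c. Of 9 NKG2D ligand genes in the list, 3 were therefore detected, with H60a above 0, Raet1c below 0 by less than 1.5-fold and Raet1b below 0 by a bound of unsettled size.

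Pvr, the CD155 gene, was slightly lower on the knockdown array, by less than the SD between features. Its 3 features read 278.7, 184.8 and 140.5 in the knockdown against 277.5, 189.6 and 148.7 in the control. The brightest feature was thus marginally higher before normalization, but after it all 3 had negative differences, of -0.08, -0.14 and -0.22. The gene's mean difference was -0.15. A feature under an older clone name of Pvr read 148.4 in the knockdown and 172.5 in the control and differed by -0.47, and adding it gave -0.23.

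Besides Pvr, only Nectin2 and Cadm1 of the related nectin and nectin-like genes could be compared on both arrays, and they lay on the same side. Nectin2, whose protein is a further DNAM-1 ligand, had features at 240.8, 189.9 and 112.3 in the knockdown against 266.8, 209.4 and 118.5 in the control. All 3 were lower in the knockdown, with a mean difference of -0.28. Cadm1, which encodes the ligand of the lymphocyte receptor CRTAM and appears under its older name Igsf4a, read 688.1 in the knockdown and 816.6 in the control and differed by -0.36. Nectin1 was detected in the control only, by 1 of 4 features, at 90 in the knockdown and 101.9 in the control, and no fold is given because its bound changed sign over the alternatives (-0.53 to 0.09). Nectin3 had no feature detected on both arrays, and Nectin4 was not above background on either. In this list 3 genes, Pvr among them, could be compared on both arrays. All 3 were below 0, beside 50.8% of all genes, and 2 by more than the SD between features, beside 19.9%. Their median was -0.28, beside -0.01 over all genes, and none reached 1.5-fold.

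Cd276, the gene of the B7 family checkpoint ligand B7-H3, was the brighter of the members past 1.5-fold and far from background. Its single feature read 792.5 on the knockdown array and 506.5 on the control array. The log2 levels were 9.45 in the knockdown and 8.81 in the control, a difference of 0.63 or 1.55-fold, rank 225 from the highest. Among the 1346 genes with a mean level within 0.5 of Cd276, 1.86% were at least 1.5-fold higher. Its difference ran between 0.56 and 0.72 over the alternatives, so that the 1.5-fold mark (0.58 on the log2 scale) was missed when no background was corrected. By distance over both arrays the nearest genes were Khk, a fructose kinase gene (distance 0.08, difference 0.52), and Mib2, a ubiquitin ligase gene (distance 0.10, difference 0.49).

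Cd80, a ligand of both CD28 and CTLA-4, was higher on the knockdown array by less. Its brighter feature read 304.3 in the knockdown and 233 in the control, a difference of 0.43. A dim feature, which the files list under the same symbol without a gene number, read 109.4 and 106.3 on those arrays and differed by 0.12, so the features disagreed in size. The gene's mean difference was 0.28, or 1.21-fold.

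Cd274, which encodes PD-L1, had nearly equal values. The raw intensity of its 1 feature was 134.4 in the knockdown and 136.1 in the control, or 18.2 and 18.3 background SDs above the peak on those arrays. Its difference of -0.09 was smaller than the SD between features, and 32.6% of genes had a smaller absolute difference. Icosl, the ICOS ligand gene, was barely detected through 1 of 2 features, at 96.3 in the knockdown and 95.7 in the control, and differed by 0.06. It was not detected on either array with a limit of 5 background SDs. The remaining B7 genes of the list, Cd86, Pdcd1lg2 (PD-L2), Vtcn1, Vsir and Btnl2, were not above background on either array. Of 9 B7 genes, 4 were thus detected, 3 above 0 and 1 below, with a median of 0.17 and with Cd276 alone past 1.5-fold.

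**Figure D2:**
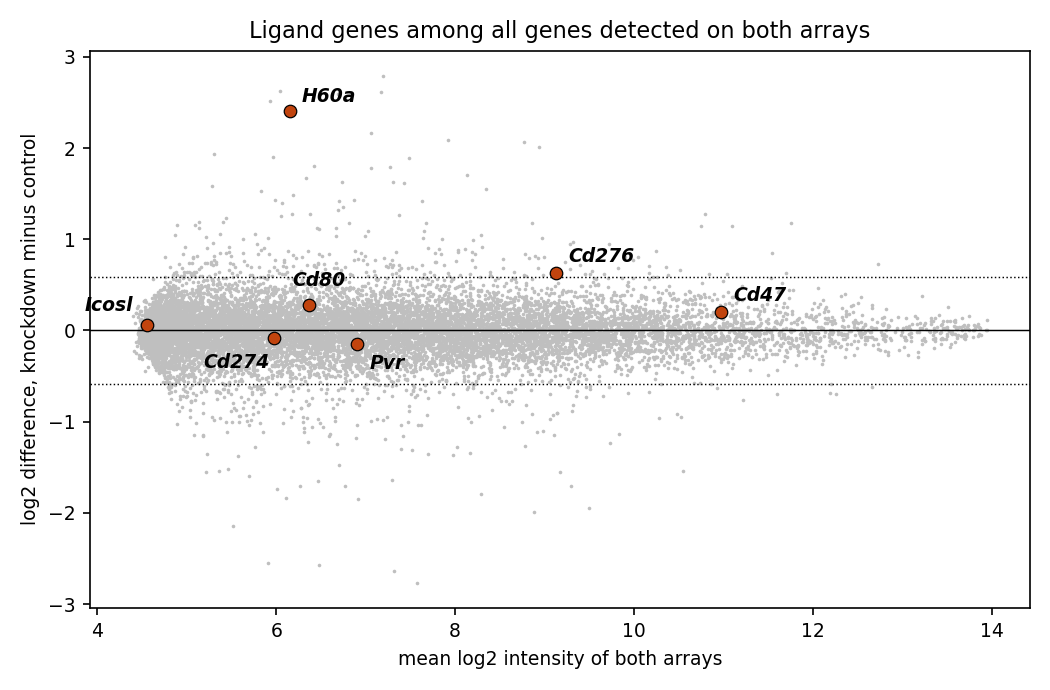
Log2 difference (knockdown minus control, vertical axis) against the mean log2 intensity of both arrays (horizontal axis) for the 13263 genes detected on both arrays (grey) and the 7 detected ligand genes (filled, named). Dotted lines mark 1.5-fold. H60a at 2.41 stands at the upper edge of the cloud, Cd276 at 0.63 lies just past the upper line, and the other ligand genes lie inside both lines.

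CD47, the phagocytosis checkpoint, has a gene with a bright feature on both arrays. It read 2277.7 on the knockdown array and 1907.6 on the control array, a difference of 0.21 or 1.15-fold, just over the SD between features. The files also hold 3 features under older names of Cd47. The bright one read 2212.5 in the knockdown and 2035.4 in the control and differed by 0.07, and averaging all 4 lowered the gene's difference to 0.09. The small difference of Cd47 therefore depended on which features were counted. Calr, the gene of calreticulin, which marks cells for engulfment, differed by 0.21, and Sirpa, the CD47 receptor gene, by 0.02. Thbs1 (thrombospondin, another CD47 ligand) differed by -0.12 near background. The enzyme gene Qpctl, whose product modifies CD47, and the genes Cd24a and Cd200 were not above background.

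**Figure D3:**
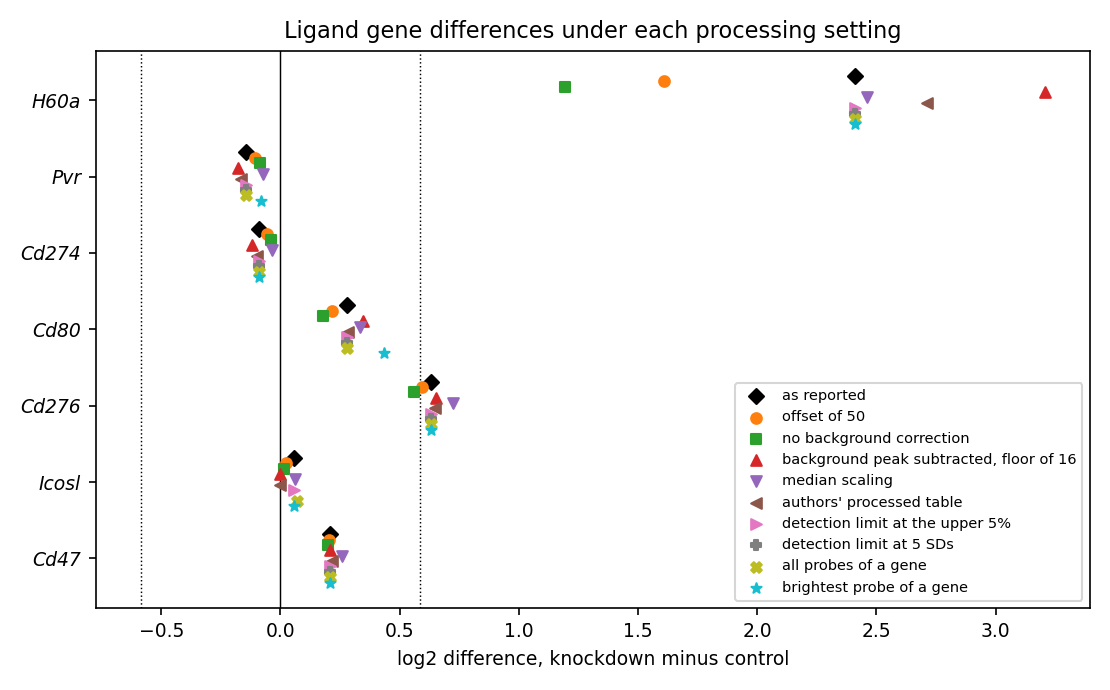
Log2 difference (knockdown minus control) of the 7 detected ligand genes as reported (black diamonds) and under the 9 alternative settings of processing. Dotted lines mark 1.5-fold. H60a ranges from 1.19 to 3.21 and stays past the upper line in every setting, Cd276 ranges from 0.56 to 0.72 around that line, and the other genes stay inside both lines.

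To show what lies upstream of members with differences above 0.19, and of Cd274 beside them, the 250 bases before the transcription start are given from RefSeq (GRCm38.p6) for Cd276 (chr9:58555034-58555283, minus strand), Cd80 (chr16:38458683-38458932, plus strand), Cd47 (chr16:49855404-49855653, plus strand, the first of its 2 start sites in the table) and Cd274 (chr19:29367188-29367437, plus strand). The reference table held such windows for 6 of the 8 members, and H60a and Pvr were not among them. For Cd80, Cd47 and Cd274 the windows lie inside the gene's annotated span, which begins further upstream (at 38457430, 49851328 and 29362107). Sequence before those positions is not shown. Capitals mark matches on either strand to GGGCGG (GC box), TGANTCA (AP-1 site) or GAAANNGAA (interferon-stimulated response element core).
Cd276: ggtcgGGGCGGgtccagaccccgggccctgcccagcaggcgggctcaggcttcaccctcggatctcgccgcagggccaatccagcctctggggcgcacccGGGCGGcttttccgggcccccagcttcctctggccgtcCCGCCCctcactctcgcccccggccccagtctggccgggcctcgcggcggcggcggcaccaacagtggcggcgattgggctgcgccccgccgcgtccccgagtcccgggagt
Cd80: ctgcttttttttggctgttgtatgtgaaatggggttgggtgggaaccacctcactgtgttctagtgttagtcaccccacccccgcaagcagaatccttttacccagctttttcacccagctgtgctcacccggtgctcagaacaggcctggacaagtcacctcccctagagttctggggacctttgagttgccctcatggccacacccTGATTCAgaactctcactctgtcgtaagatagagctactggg
Cd47: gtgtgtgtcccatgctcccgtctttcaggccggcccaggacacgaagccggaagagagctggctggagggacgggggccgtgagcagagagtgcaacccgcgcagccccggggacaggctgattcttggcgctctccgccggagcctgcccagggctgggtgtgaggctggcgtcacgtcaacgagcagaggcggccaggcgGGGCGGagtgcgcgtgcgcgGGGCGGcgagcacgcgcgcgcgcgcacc
Cd274: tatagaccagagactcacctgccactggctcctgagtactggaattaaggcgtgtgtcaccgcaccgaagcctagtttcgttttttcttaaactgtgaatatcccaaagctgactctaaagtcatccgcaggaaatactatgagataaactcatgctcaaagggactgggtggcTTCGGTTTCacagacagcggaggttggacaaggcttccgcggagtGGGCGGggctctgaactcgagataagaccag

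The windows differ in base composition. That of Cd276 is 77.6% G and C with 29 CpG pairs and that of Cd47 is 73.2% with 30, against medians of 52.4% and 6 over 32851 promoter windows. The Cd80 window (52.8%, 3 pairs) and the Cd274 window (50.4%, 11 pairs) are close to the median in G and C. The GC box letters occurred 3 times for Cd276, with first bases 245, 150 and 112 bases before the start, and 2 times for Cd47, at 48 and 28 bases, where 32.7% of all windows hold at least 1. The AP-1 letters occurred once for Cd80, 42 bases before the start, and in 6.75% of all windows. The element core occurred once for Cd274, 76 bases before the start, and in 7.13% of all windows, and a GC box followed at 31 bases. A TATA box (TATAAA, held by 12.4% of windows) and a STAT site (TTCNNNGAA, held by 7.02%) were also searched on both strands and were not found in these 4 windows. Within each window no matches to different motifs overlapped. A match is a string of letters and no measurement of binding.

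PD-L1 is induced by interferon gamma and stabilised at the surface by the membrane proteins of Cmtm6 and Cmtm4. All 9 genes of this list were detected on both arrays, and none was 1.5-fold apart. Jak2, a kinase of the interferon gamma receptor, differed by -0.38, and between -0.42 and -0.14 over the alternatives. The value of -0.14, smaller than the SD between features, came with its features near background averaged in. Its detected features read 436.3 and 253.9 in the knockdown against 526.7 and 288.5 in the control, lower in both. Cmtm6 read 181.7 in the knockdown and 204.5 in the control and differed by -0.36. Stat3 differed by -0.25, while Irf1, an interferon-induced transcription factor gene, differed by -0.05. The list had 8 of 9 genes below 0, beside 50.8% of all genes, and 3 of 9 by more than the SD between features, beside 19.9% of all genes. Its median of -0.07 became 0.02 with median scaling.

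Ligands of other receptors were also within 1.5-fold wherever they were detected on both arrays. In the TNF family, Tnfsf9 (the 4-1BB ligand) read 222 in the knockdown and 240.5 in the control and differed by -0.26. Tnfrsf14, whose product engages the inhibitory receptor BTLA, differed by -0.19. Cd40 passed the detection limit on the knockdown array alone, with a bound that also changed sign over the alternatives (-0.18 to 0.07), and the other 7 genes of that list, among them the death ligand genes Tnfsf10 and Fasl, were not above background. Among ligands and enzymes outside these families, Lgals3, the bright galectin-3 gene, read 6929.3 in the knockdown and 5180.8 in the control and differed by 0.36. Clec2d, which encodes a ligand of the inhibitory NK receptor NKR-P1B, read 341.1 in the knockdown and 395.4 in the control and differed by -0.36. That list of 10 had 6 genes detected on both arrays, 3 above and 3 below 0, and a median of 0.03.

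**Figure D4:**
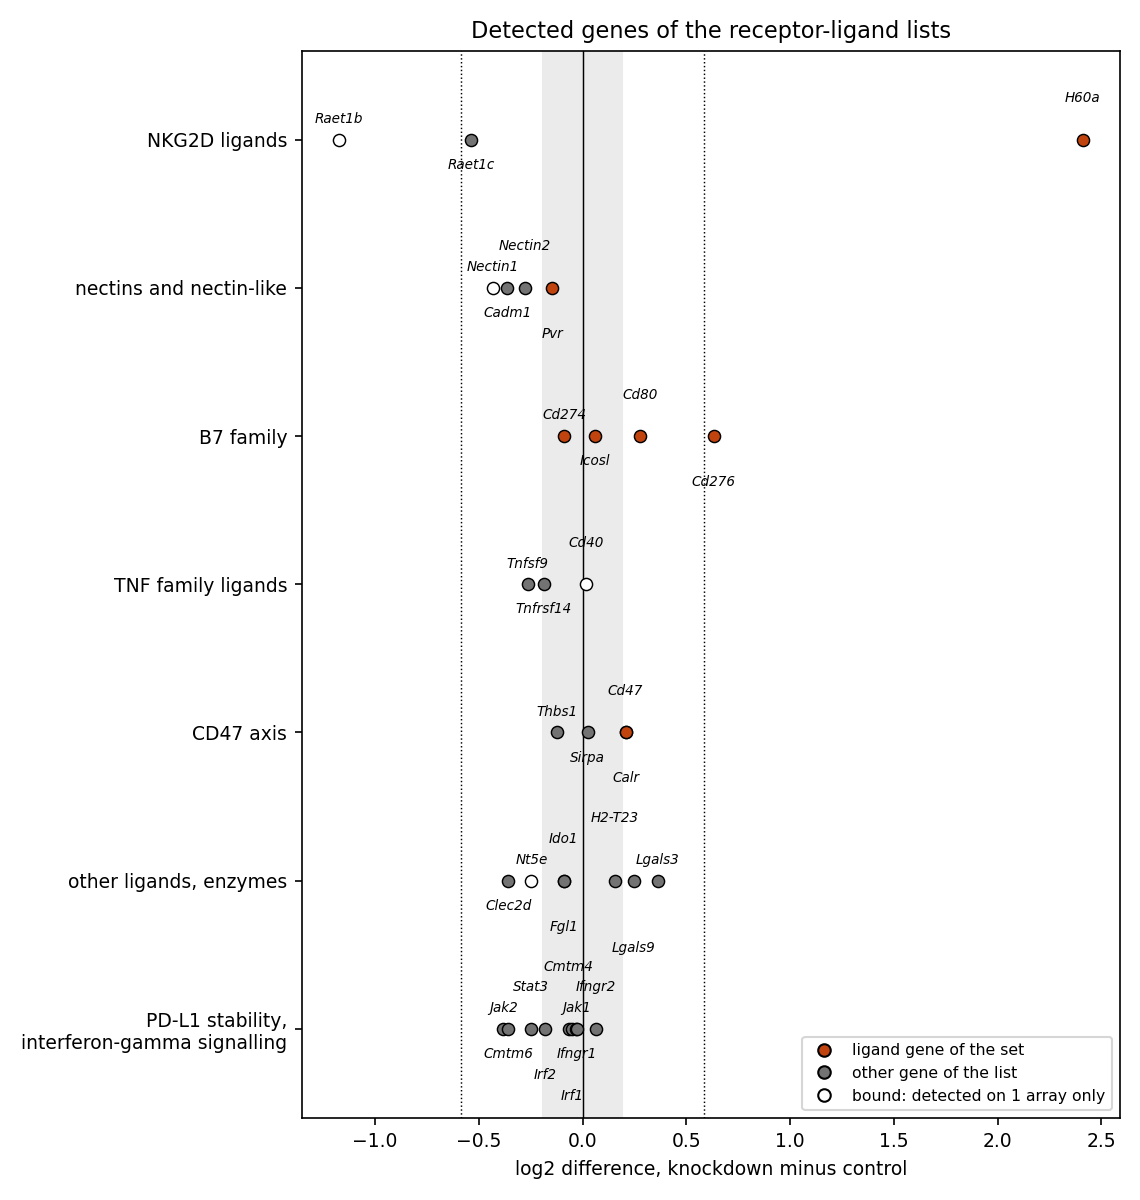
Log2 difference (knockdown minus control) of every gene with a difference or a bound in 7 lists of receptor ligands and related genes, 1 row per list. Filled coloured points are the ligand genes of the set, grey points other list genes and white points bounds of genes detected on 1 array. The grey band is the SD between features (0.19) and dotted lines mark 1.5-fold. H60a and Cd276 lie past the upper line and the Raet1b bound, as processed here, past the lower one.

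The labels were set against marker genes. Cdk8 was lower on the knockdown array at its 1 detected feature of 3, which read 317.9 in the knockdown and 992.5 in the control (difference -1.99, between -2.06 and -0.69 over the alternatives), the direction of the label. Of 10 colon epithelium markers, 5 were detected (Krt20, Cdx1, Cdx2, Cdh1 and Lgals4), with no feature above 107.6 in the knockdown or 138 in the control. Epcam, Krt8, Krt18, Krt19 and Vil1, each with 1 feature, were not above background on either array. Krt8 lay just under the limits, at 93.7 in the knockdown and 94.1 in the control. Krt20, near background in the knockdown at 95.9, differed by -0.95, and between -0.95 and -0.30 over the alternatives. Cdx2 differed by -0.93, and between -1.42 and -0.37 over the alternatives. Cdx1 (0.02), Lgals4 (-0.03) and Cdh1 (-0.14) differed by less, and the median of the detected colon markers was -0.14. Leukocytes also express Cd80, Icosl and Cd47. Of 13 leukocyte markers 2 were detected (Klrb1c and Csf1r), no feature of the list passed 99.1 in the knockdown or 99.6 in the control, and Ptprc and Cd3e were at background. The summed raw intensity of the 26 leukocyte features was 2307.4 in the knockdown and 2337.6 in the control. Background, with a peak of 88.1 per feature in the knockdown and 88.7 in the control, was not subtracted from this or the later sums. The leukocyte sum is therefore nearly all background. Of 9 lymphocyte receptor and adaptor genes measured, Pdcd1 was detected near background on both arrays. Cd226 was detected near background on the knockdown array alone, by 1 of 4 features, with a bound that changed sign over the alternatives (-0.19 to 0.25). The other 7, Klrk1 (NKG2D) among them, were not detected. The phagocyte receptor gene Sirpa was clearly detected, with its brighter feature at 194 in the knockdown and 178.9 in the control. Endothelial markers were detected for 3 of 8 genes, with Tie1 (-0.42) and Kdr (0.26) furthest from 0. Their sum, also mostly background, was 1021.7 in the knockdown and 1017.1 in the control. Fibroblast markers were detected for 9 of 10 genes and summed over 20 features to 6956.6 in the knockdown and 4767.5 in the control. Over the 7 detected on both arrays their median difference was 0.46, with 5 above 0 and 2 below. Those at least 1.5-fold apart were Col1a1 (1.41), Col1a2 (0.84), Col3a1 (-0.60) and Pdgfrb (-1.01). Over the alternatives Col1a1 stayed past 1.5-fold (0.72 to 1.54). Col1a2 (0.46 to 1.03), Col3a1 (-0.71 to -0.29) and Pdgfrb (-1.59 to -0.39) did not in every setting. Lum, above background on the knockdown array alone, had a bound of 0.77 that ran down to 0.15 over the alternatives. Most of the gap between the sums came from the 4 features of Dcn, which summed to 4225.4 in the knockdown and 2526.1 in the control. Their summed level was thus higher on the array on which H60a and Cd276 were higher, and its part in these results was not tested.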

How the data were processed

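Total RNA of 1 knockdown and 1 control sample was turned into biotin-labelled cRNA for Illumina arrays, per the labels' protocols. The deposited raw table holds 1 intensity per feature, exported with GSGX 1.9.0 with normalization set to none and an analysis name that says no background, per the file headers. It gives no detection p-values, so background was read from the intensities, and precision is limited by the number of arrays. The deposited processed intensity table, whose making is not given in the sources used here, served as an alternative; its medians were 3.4 on both arrays, 29.8% of each column is below 0, and its centring and scaling stay unknown.

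The background peak was 88.1 (knockdown) and 88.7 (control) and its SD, from values below the peak mirrored upwards, 2.54 and 2.59. Total raw intensity was 1.46e+07 and 1.40e+07. Intensities were corrected with limma 3.58.1 (normexp) in R 4.3.3, offset by 16, then quantile normalized and taken to log2. Features were assigned by gene number through RefSeq (GRCm38.p6, matched for 29586 of the 31508 features with a number), else by symbol. A gene's value is the mean over features detected on at least 1 array. A gene detected on 1 array has a bound, with the undetected side set to its own value or that array's lowest detected one, whichever was higher. Genes with no feature detected on both arrays but with different features detected on each (42) have no difference. This last rule and the rule on symbols without gene numbers were settled after values had been seen.

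Named genes are all members, the detected genes of the NKG2D ligand, nectin and B7 lists, in other lists those 1.5-fold apart or else the 2 furthest from 0, and the 2 nearest genes of each member past 1.5-fold. Further names are examples chosen after their values were seen. Members and lists were chosen with earlier results of these data known. One gene of the interferon gamma list is not reported here. No p-value was computed. The processing was tested on simulated arrays made from the control array. Changes were planted only in genes with a feature well above background, so dim values, such as H60a in the control, were not covered.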

Additional observations from a re-analysis of the deposited data

How the results depend on the processing

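Of the recomputed values of members, list medians and counts, 120 moved by less than the SD between features (or, for counts, by less than 1.5 times) and 7 by more. Of those of the other named genes 253 moved by less and 66 by more, most often for Lum, Nectin1 and Raet1c. These counts include recomputations that could not move. For H60a, Cd276, Cd274 and Cd47, each with 1 feature, the settings of detection limit and of feature choice returned the same value. Raet1b ran between -1.27 and -0.22 and Raet1c between -0.54 and -0.05, which was -0.24 with only features detected on both arrays, chosen after seeing the data. The difference of H60a was 1.61 with an offset of 50, 1.19 without background correction, 3.21 with the background peak subtracted and 2.71 from the authors' processed table. In the last pair of settings the control value was set to the floor of 16, so these are bounds of at least that size. Without background correction 1 member in place of 2 was at least 1.5-fold apart, since Cd276 fell short, and 1.43% of all genes were. With an offset of 50 the share of all genes was 2.10%. Pvr and Cd274 stayed below 0 and Cd80, Cd276 and Cd47 above 0 in every setting that gave a value. Adding features under older names, chosen after seeing the data, gave -0.23 for Pvr and 0.09 for Cd47. Icosl was 0 where both arrays were set to the floor and had no value with a limit of 5 SDs. Ulbp1 was detected only with a limit at the upper 5%, where its difference was 0.02. No paired analysis was possible because each group had 1 array. Features near background (H60a in the control, Icosl, the Raet1 genes) set the limit of what these arrays resolve.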
